A study of Homo sapiens with 8 samples.

Results

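HepaRG cells, a human hepatic line that gives hepatocyte-like and cholangiocyte-like cells after differentiation, were profiled one by one, and the 359 cells described here are those in which replication (S-phase) genes stood highest relative to mitotic genes. They were the top 5% of 7172 scored cells, out of 12976 cells in the data. A cell was scored when at least 500 genes were detected, at most 20% of its unique molecular identifiers (UMIs, counts of captured RNA molecules) came from mitochondrially encoded (MT-) genes, and its culture had received neither rotenone nor cycloheximide 20 µM. The score was the mean of ln(1 + UMIs per 10000) over FAM111B, RRM2, MCM4, MCM10, POLQ, CDC6, E2F1 and CCNE2, minus the same mean over MKI67, CENPF, CCNB1 and PLK1. The members were therefore chosen on measured values, and the levels of these 12 genes are given below as a description, without a test.

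The study examined how chemical stressors change single cells of differentiated HepaRG cultures. Cells bought as terminally differentiated were kept for 7 days in medium with a plating additive, treated for 24 hours, dissociated and fixed. They were sequenced by split-pool barcoding (Parse Evercode, a whole-transcriptome assay) in 8 sublibraries that each held cells of many treatments. Dissociation was done with actinomycin D and anisomycin, which stop transcription and translation. The scored cells came from 41 sample names, taken here as cultures. They had received 0.1% DMSO as the vehicle, medium alone, brefeldin A (0.001, 0.01 or 0.1 µM, a blocker of transport from the endoplasmic reticulum to the Golgi), cycloheximide (0.2 or 2 µM, a translation inhibitor), etoposide (0.25, 2.5 or 25 µM, a topoisomerase II poison), tert-butylhydroquinone (tBHQ; 3, 30 or 300 µM, an NRF2 activator), troglitazone (50 µM, a PPARγ agonist) or tunicamycin (0.001, 0.01 or 0.1 µM, a blocker of N-glycosylation). All cultures were HepaRG, a line derived from 1 tumour. The study describes a single HepaRG culture with 1 biological replicate per condition, for its main experiment on another single-cell platform. Whether cultures with the same treatment are biological replicates in the data used here is not stated. They are separate samples by name, and p-values measure the spread between them, which may be technical. The troglitazone dose and the medium control stand in the cell table but not in the written protocols, and the number that opens each sample name, called the run here, is not defined by the sources used here.

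A cell copies its DNA once per division. Before S phase, ORC, CDC6 and CDT1 load the MCM2-7 helicase at origins (licensing), and at the onset of S phase CDC45 and the GINS complex join the MCM ring to form the active CMG helicase. Polymerases alpha, delta and epsilon then copy the strands, held by the sliding clamp PCNA. Transcription factors of the E2F family switch on most of these genes at the boundary of G1 and S, whereas genes of the spindle and of chromosome segregation peak later, in G2 and mitosis. Most hepatocytes of an adult liver and most cells of a differentiated HepaRG culture do not divide.

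The cells did not form a separate cloud. The last cell inside had a score of 0.0827 and the first outside 0.0827 as well, and the 5 cells just inside had 1, 2 or 7 of the 8 S genes detected while the 5 just outside had 1 to 3. Among the members the score ran from 0.0827 over a median of 0.134 to 0.833, and 25.7% of all scored cells stood at exactly 0. The members were shallower than the other 6813 scored cells, with a median of 30621 UMIs and 7211 genes against 41011 UMIs and 8096 genes, and they had a similar share of MT- UMIs, with medians of 14.1% and 15.1%. Barcodes identical but for the sublibrary occurred in 711 scored cells, 40 of them members. No doublet caller was run, and doublets were not removed here. The cultures of run 4 that received medium, DMSO, troglitazone 50 µM or cycloheximide 0.2 µM stood apart, with median MT- shares of 1.92%, 2.46%, 3.24% and 1.23% of UMIs.

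**Figure D1:**
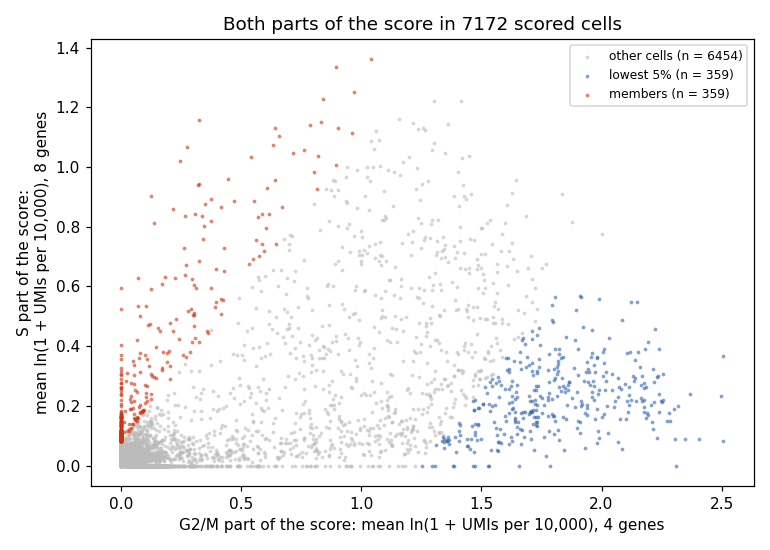
Each point is 1 of 7172 scored cells, with the G2/M part of the score on the x axis and the S part on the y axis, both as mean ln(1 + UMIs per 10,000). The 359 members (red) lie along the upper left edge, many of them on the axis with no G2/M gene detected, while cells with an S part as high as theirs but a higher G2/M part (grey) and the 359 lowest-scoring cells (blue) lie to the right.

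The label of S phase held for a portion of the members. Of the 359, 71 had a UMI of only 1 of the 8 S genes, 66 of 2, 97 of 3 to 5, and 125 of 6 to 8. The check used 58 replication genes outside the score (licensing, CMG helicase, polymerases, and clamp and lagging-strand genes), summed per cell as UMIs per 10000. Members with 6 to 8 S genes had a median of 35.3 (quartiles 21.3 and 52.2, n = 125 cells) and those with 3 to 5 had 17.5 (11.5 and 29.6, n = 97). Members with 1 or 2 S genes had a median of 8.05 (5.99 and 11.6, n = 137), close to the 7.71 of all other scored cells and the 7.11 of the 2686 cells with no S gene detected. These 137 cells, 38.2% of the members, were also the shallow ones, with a median of 19800 UMIs against 38911 and 49047 in the other bins. The members as a whole are therefore called top-scoring cells in what follows.

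**Figure D2:**
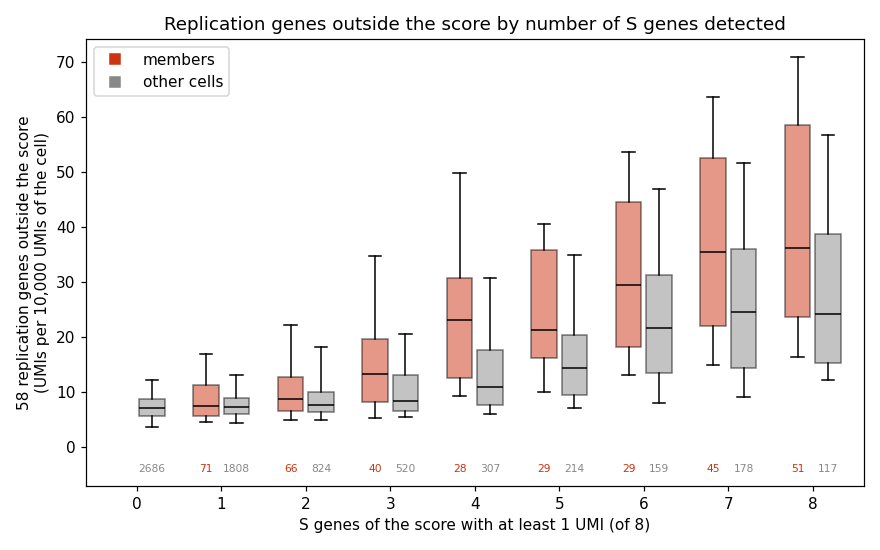
The x axis is the number of the 8 S genes with at least 1 UMI and the y axis the summed level of 58 replication genes outside the score, in UMIs per 10,000 UMIs of the cell, for members (red) and other scored cells (grey). Boxes give quartiles with the median, whiskers the 5th and 95th percentiles, and the small figures the cells per box; the level is flat to 2 S genes, rises from 3, and in cells with equal numbers of S genes the members' median stands above that of the other cells.

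DTL, the substrate receptor of the ubiquitin ligase that removes CDT1 during replication, showed the same gradient in single cells. It is 1 of the 58 genes and had the largest rise in the comparison below, so it is not a separate check. In cells thinned to 10000 UMIs each, a UMI of DTL was found in 69.6% of members with 6 to 8 S genes, 36.8% with 3 to 5 and 3.17% with 1 or 2, against 0.733% of the other cells with no S gene, which serve as the background. Without thinning the shares were 99.2%, 61.9%, 7.30% and 1.86%, at median depths of 49047, 38911, 19800 and 24112.5 UMIs. Across the members the score went with the 58 genes at Spearman's rho = 0.672 (n = 359 cells, which share cultures and libraries), and depth went with the number of S genes at rho = 0.605 but hardly with the score, at rho = 0.056.

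The subtraction of the mitotic genes also set who was counted. Of 579 cells with at least 6 S genes detected, 125 were members and 454 were not, and 453 of those 454 carried a UMI of at least 1 of the 4 G2/M genes. These excluded cells were deeper (median 103300 UMIs) and had a median of 23.4 UMIs per 10000 of the 58 replication genes, above most cells, together with 46.2 of 45 G2 and mitosis genes outside the score. Of the 359 members, 84 (23.4%) were in the top 5% by the S genes alone.

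The score genes themselves, which the rule used, are given here as CPM, UMIs pooled over a class and scaled to its total. MCM4, a subunit of the replicative helicase, was detected in 83.6% of members at 71.1 CPM against 39.5% of other cells at 15.6 CPM, and it was the sole S gene in 37 of the 71 members with 1. FAM111B, a protease, stood at 141 CPM against 16.8 CPM, with a UMI in 55.7% of members and 14.7% of others. CDC6, the licensing factor, stood at 34.0 against 4.67 CPM, and CCNE2, a cyclin of S-phase entry, at 34.4 against 5.25 CPM. MCM10, which helps start the helicase, stood at 30.6 against 3.33 CPM, and E2F1, an activator of the E2F family, at 9.31 against 0.978 CPM. RRM2, the small subunit of ribonucleotide reductase, and POLQ, the polymerase of end joining, separated the classes less, at 65.9 against 31.3 CPM and 55.8 against 22.4 CPM. Both were in fact higher in the 359 lowest-scoring cells, the mitotic end of the score, at 125 and 126 CPM, whereas CCNE2 and E2F1 were at 3.17 and 0.906 CPM there. Of the subtracted genes, MKI67 stood at 65.4 CPM in the members and 155 CPM in the others, and CCNB1, the mitotic cyclin, at 1.77 and 17.1 CPM.

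Genes outside the score were then compared between the members and the other cells of the same culture, in the 13 cultures with at least 10 members and 30 other cells (7 of run 3, 4 of run 4, 1 each of runs 5 and 6). The sums for each culture held 187467 to 3202900 UMIs for the members and 6459012 to 79646185 for the others. No DMSO culture reached 10 members. Of 16118 genes tested with edgeR's quasi-likelihood test with culture as a block, 613 (3.8%) were higher in the members and 227 (1.41%) lower at an adjusted p under 0.05 (5.21% either way), against 499 and 323 with TMM factors, and the median log2 fold change over all genes was 0.00416. Since replication genes are expressed together, genes that go with the 8 S genes were favoured by the choice of cells, and the test describes which genes these were. Without the 7 cultures of run 3 there were 173 higher and 33 lower, and without the 4 of run 4 there were 394 and 188.

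The genes with the largest rises were replication genes, by the rule of at least 20 CPM, at least 50 UMIs and a rise in all 13 cultures. DTL ran from 52.8 over a median of 74.2 to 147 CPM in the members and from 2.63 over 7.29 to 17.4 CPM in the other cells. The members of every culture were above the other cells of every culture, and the log2 fold change was 3.47 ± 0.22 (SE, n = 13 cultures, edgeR adjusted p = 1.57e-09), 11.1-fold. CDC45 ran from 13.7 over 30.5 to 50.4 CPM in the members and from 0.676 over 2.80 to 9.33 CPM in the others, again without overlap, at a log2 fold change of 3.23 ± 0.26 (edgeR adjusted p = 1.81e-08). The other 8 were MCM5 (log2 fold change 2.64), WDR76 (2.63), MCM6 (2.54), CLSPN (2.44), XRCC2 (2.31), PCLAF (2.29), ZNF367 (2.23) and MCM3 (2.21). Of these, CLSPN is claspin, the adaptor of the replication checkpoint, XRCC2 a DNA repair gene, PCLAF a PCNA-binding protein and MCM3, MCM5 and MCM6 helicase subunits. Culture levels of the members did not overlap those of the other cells in 12 of the 60 genes named by the rules, against 0.136% of all genes tested. The rules named genes by the size and direction of their change, so a higher share without overlap was built into the choice.

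**Figure D3:**
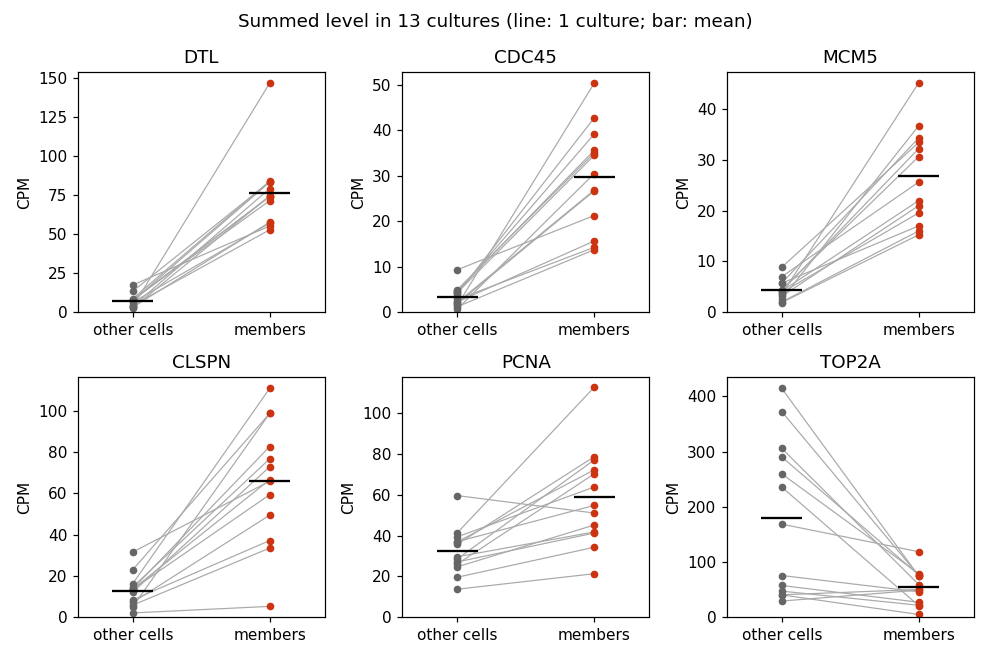
Summed levels in CPM of 6 genes in the other cells (grey) and the members (red) of 13 cultures, with a line for each culture and a bar at the mean. DTL, CDC45 and MCM5 are higher in the members of every culture with no overlap between classes, CLSPN is higher in every culture with overlap, PCNA is higher in 12 of 13, and TOP2A is lower in the members of 11 of 13.

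The promoters of these genes were searched for the E2F core word, since E2F factors are known to bind many replication genes. The words were TTTCCCGC, TTTCGCGC, TTTGCCGC and TTTGGCGC, on both strands, in the 250 bases before the start of each gene (RefSeq, GRCh38.p14), with overlapping matches counted. Of the 10 largest rises 8 had a promoter in the table, and 4 of those 8 held a word, namely DTL, MCM3, MCM6 and ZNF367. E2F1 held 2, while MCM10, POLQ, CDC6 and RRM2, the other score genes with an entry among the 8 S genes, held none in this window. The stretches around the match nearest the start are printed 5′ to 3′ along the gene's strand, with the words in capitals. DTL lies at chr1:212035700-212035747 (plus strand), MCM3 at chr6:52284869-52284956 (minus), MCM6 at chr2:135876482-135876569 (minus), ZNF367 at chr9:96418371-96418431 (minus) and E2F1 at chr20:33686386-33686445 (minus), each window upstream of the RefSeq start. By the GENCODE gene bounds the DTL window lies inside the gene, which starts at 212035553, and the MCM3 window reaches into its gene, which ends at 52284881.
DTL: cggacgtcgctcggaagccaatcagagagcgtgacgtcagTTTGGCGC
MCM3: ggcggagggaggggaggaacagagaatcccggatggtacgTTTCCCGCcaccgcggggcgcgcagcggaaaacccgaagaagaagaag
MCM6: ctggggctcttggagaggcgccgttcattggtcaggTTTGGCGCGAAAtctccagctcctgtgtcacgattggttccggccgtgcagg
ZNF367: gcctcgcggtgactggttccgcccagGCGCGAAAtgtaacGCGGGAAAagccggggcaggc
E2F1: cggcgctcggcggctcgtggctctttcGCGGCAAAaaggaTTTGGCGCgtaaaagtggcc
The word of DTL begins 8 bases before the RefSeq start, and in MCM6 a forward and a reverse word overlap.

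Over all protein-coding genes the word stood in 54 of 476 promoters (11.3%) of genes called higher, 5 of 151 (3.31%) of genes called lower and 456 of 10230 (4.46%) of genes tested, where 83.4%, 83.0% and 80.3% of the genes had a promoter in the table. TTTGAA, the core of the cell-cycle homology element found upstream of many mitotic genes, stood in 42 of 476 (8.82%), 32 of 151 (21.2%) and 925 of 10230 (9.04%). It was in 7 of the 13 promoters found for the 15 G2 and mitosis genes called lower. A match is a run of letters, and binding was not measured here.

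Origin licensing genes were higher as a group. Of 13 tested, 10 rose and none fell, with a median log2 fold change of 1.60. MCM5, MCM6, MCM2 and MCM3, which with MCM4 and MCM7 form the helicase ring, had the largest rises of the list. MCM6 ran from 13.7 over 46.5 to 68.7 CPM in the members and from 3.87 over 7.17 to 13.2 CPM in the others, a 5.80-fold difference without overlap. MCM2 ran from 2.75 to 37.0 CPM in the members and from 1.39 to 4.66 CPM in the others, so that its classes overlapped although it was higher in all 13 cultures (log2 fold change 2.50 ± 0.20, edgeR adjusted p = 1.47e-08). MCM7 rose less, at a log2 fold change of 1.09. The summed list stood between 420 and 753 CPM in the members and between 286 and 369 CPM in the other cells.

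Of 15 genes of the CMG helicase and origin firing, 12 rose and none fell (median log2 fold change 1.24). After CDC45, the largest were GINS2, a subunit of the GINS complex, at 2.75 ± 0.29, CLSPN at 2.44 ± 0.18 and WDHD1, the And-1 adaptor between helicase and polymerase alpha, at 2.09 ± 0.17. GINS2 was a low gene, at 8.07 ± 4.41 CPM (SD) in the members and 1.18 ± 0.506 CPM in the others, with no UMI in the members of at least 1 culture.

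Among the replicative polymerases 9 of 12 rose and none fell, with a median log2 fold change of 1.16. POLA1, the catalytic subunit of the primase-polymerase, ran from 90.7 over 137 to 207 CPM in the members and from 36.0 over 50.2 to 69.7 CPM in the others. Its classes did not overlap, and it rose 2.86-fold (log2 fold change 1.52 ± 0.11, edgeR adjusted p = 7.74e-09). POLE2 (log2 fold change 1.78), POLA2 (1.66) and POLD1 (1.36), subunits of polymerases epsilon, alpha and delta, were at 20.4, 31.8 and 15.7 CPM in the members.

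Of 17 genes of the clamp, its loaders and lagging-strand synthesis, 15 rose and none fell (median log2 fold change 1.21). Besides DTL these were led by DSCC1 (1.71 ± 0.22), part of an alternative clamp loader, RFC3 (1.68 ± 0.11), a subunit of the main loader, and ATAD5 (1.63 ± 0.13), which takes the clamp off. RFC3 ran from 38.5 over 91.8 to 128 CPM in the members and from 14.5 over 32.3 to 48.8 CPM in the others. PCNA itself rose 1.81-fold, and it was higher in 12 of 13 cultures. DSCC1 was at 12.4 ± 6.02 CPM in the members and 3.98 ± 1.19 CPM in the others (SD, n = 13).

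Genes of nucleotide supply moved less, with 8 of 17 higher, none lower and a median log2 fold change of 0.35. TK1, thymidine kinase, led at 1.88 ± 0.29, followed by DCTPP1, a dCTP pyrophosphatase (1.24 ± 0.29), RRM1, the large subunit of ribonucleotide reductase (1.04 ± 0.16), and DUT, the dUTPase (0.96 ± 0.11). TYMS, thymidylate synthase, rose 1.56-fold, and its pooled level was 56.7 CPM in the members and 142 CPM in the lowest-scoring cells. With the members chosen after thinning, 3 of 17 were called higher.

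Chromatin assembly and DNA methylation genes rose in 11 of 12 cases (median log2 fold change 0.97), with none lower. HELLS, a remodeller needed for DNA methylation, ran from 54.9 over 186 to 276 CPM in the members and from 19.6 over 37.3 to 93.2 CPM in the others, with overlap (4.61-fold, edgeR adjusted p = 3.83e-09). CHAF1A and CHAF1B, subunits of the chaperone that places new histones behind the fork, rose 4.37-fold and 3.36-fold, and ASF1B, another histone chaperone, 3.60-fold. The replication-dependent histone genes did not follow. Of 41 on the list 13 passed the filter on low counts, none rose, H2AC6 was lower (log2 fold change -0.61 ± 0.13, edgeR adjusted p = 0.00675), and the median was -0.45. Their messages largely lack poly(A) tails, and whether this bears on their levels here was not tested.

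Of 28 replication checkpoint and fork repair genes 23 rose and none fell, with a median log2 fold change of 1.39. CDC25A, the phosphatase that releases CDK2, led at 2.51 ± 0.33 but was low, at 7.85 CPM against 1.54 CPM. XRCC2 ran from 18.3 over 42.5 to 57.0 CPM in the members and from 4.03 over 8.79 to 13.03 CPM in the others, without overlap. BRIP1, a helicase of the Fanconi pathway, rose 4.41-fold, from 71.1 over 125 to 171 CPM against 13.9 over 26.6 to 65.1 CPM. BRIP1 was again higher in the members of every culture than in the other cells of any.

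Among 17 E2F and DREAM regulators 10 rose and none fell (median log2 fold change 0.43). The leaders were MYBL2 (2.34 ± 0.34), a partner of the complex that activates mitotic genes, E2F8 (1.66 ± 0.27), a late repressor of E2F targets, MYBL1 (1.57 ± 0.19) and RBL1 (1.17 ± 0.15), the p107 pocket protein. Of 11 cyclins and kinases of G1 and S, CDK2 (0.81 ± 0.14), SKP2 (0.70 ± 0.15), CDK4 (0.65 ± 0.18) and CDK6 (0.22 ± 0.06) were higher. CCND3, a cyclin of G1, went the other way, from 48.0 over 105 to 142 CPM in the members and from 132 over 155 to 197 CPM in the others. It was lower in the members of all 13 cultures with slight overlap between cultures (log2 fold change -0.57 ± 0.10, edgeR adjusted p = 0.0015). Without run 3, 1 of the 11 was called higher and none lower. None of 6 CDK inhibitor genes passed, and CDKN1A, the p21 gene, was at a median of 99.8 CPM in the members and 108 CPM in the others (log2 fold change -0.12 ± 0.11, edgeR adjusted p = 0.643).

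**Figure D4:**
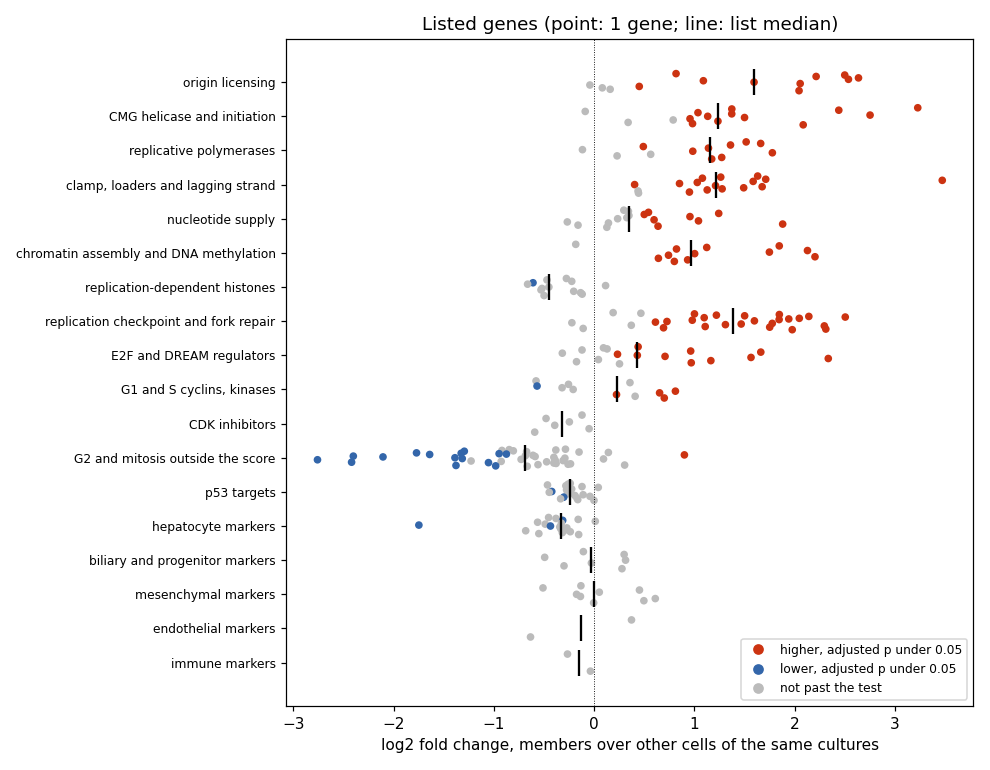
Log2 fold changes of listed genes, members over other cells of the same culture, on the x axis and the gene lists on the y axis, with a point for each gene and a line at the list's median. Points to the right are higher in the members (red, past the test). The replication lists other than the histones centre between 0.35 and 1.60. The replication-dependent histones centre at -0.45 and the G2 and mitosis list at -0.69. Without run 3, which is not drawn, the G2 and mitosis median was 0.26.

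Of 43 G2 and mitosis genes outside the score, 15 were lower in the members and 1 was higher, with a median log2 fold change of -0.69. Since the rule subtracted 4 genes of this kind, a lower level was built into the choice. KIF20A, a kinesin of cytokinesis, fell by 2.76 ± 0.39 on the log2 scale (1.88 against 13.9 CPM), and NEK2, DLGAP5 and GTSE1 fell by 2.42, 2.40 and 2.11. CENPI, a centromere protein, was the exception, at 48.5 ± 20.7 CPM in the members and 28.0 ± 17.3 CPM in the others (SD, n = 13), higher in all 13 cultures (log2 fold change 0.90 ± 0.17, edgeR adjusted p = 0.0016). The direction did not hold in every setting. Without the 7 cultures of run 3 none of the list was lower, 1 was higher and the median was 0.26. In the 4 DMSO cultures with at least 5 members, a setting chosen after the data were seen, none was lower and the median was 0.49. Without the tunicamycin 0.001 µM culture of run 3 alone 9 were lower, and without run 4 there were 28. Without the 359 lowest-scoring cells in the reference 7 were lower and the median was -0.16. Within the members the list rose with the number of S genes, from a median of 2.15 UMIs per 10000 with 1 or 2 S genes to 14.5 with 6 to 8, against 2.07 in the other cells and 136 in the lowest-scoring ones.

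Set beside the lowest-scoring cells, the members with 6 to 8 S genes had more of the 58 replication genes (medians of 35.3 and 15.9 UMIs per 10000), and the genes differed in how far the classes were apart. Their pooled level of DTL was 111 CPM against 14.4 CPM, of CDC45 44.5 against 4.18 CPM and of MCM5 40.0 against 4.63 CPM. PCNA was at 70.7 and 60.4 CPM, whereas TYMS was at 73.2 and 142 CPM and TOP2A, topoisomerase II alpha, at 89.5 and 1699 CPM. These are pooled values of cells chosen at both ends of one score and have no test.

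Outside the cell cycle, p53 targets and hepatocyte markers leaned lower in the members, with few past the test. The log2 fold change was negative for 21 of 22 p53 targets and 18 of 19 hepatocyte markers, against 7925 of all 16118 genes. Over all genes tested 1.41% were called lower. Of 22 p53 targets, TNFRSF10B, a death receptor, and MDM2, the ligase that degrades p53, were lower, at log2 fold changes of -0.30 ± 0.06 and -0.42 ± 0.11, and the list's median was -0.24. Of 19 hepatocyte markers 3 were lower (median -0.33). CYP3A4, a major drug-metabolising enzyme, ran from 0 over 3.05 to 195 CPM in the members and from 4.38 over 24.6 to 259 CPM in the others, with wide overlap (log2 fold change -1.75 ± 0.36, edgeR adjusted p = 0.00456). CYP3A5 and APOB, the core protein of very-low-density lipoprotein, were at -0.43 and -0.31. With the members chosen after thinning, none of the p53 targets and none of the hepatocyte markers passed, and without run 3 there were none and 2.

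The 10 largest falls by the same rule were small beside the rises. CYP3A43, a P450 near CYP3A4, and BTNL8, a butyrophilin-like protein, fell by 1.38 and 1.20 on the log2 scale. BTNL8 ran from 4.76 over 11.2 to 27.6 CPM in the members and from 24.5 over 29.1 to 39.1 CPM in the others, with overlap at the ends. MEIS1, CCND3, PRICKLE2, CCDC13, KDM6B, GCNT2, NR1H4 and BTG1 fell by 0.45 to 0.63, among them NR1H4, the bile acid receptor FXR, and BTG1, an antiproliferative gene. BTG1 stood at 62.4 ± 18.6 CPM in the members and 85.2 ± 18.4 CPM in the others (SD, n = 13).

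No marker of another cell type passed the test, with 7 biliary and progenitor, 9 mesenchymal, 2 endothelial and 2 immune genes tested, whereas without run 4 a biliary gene and 2 mesenchymal genes were higher. The summed hepatocyte list was between 7399 and 26503 CPM in the members and between 8818 and 29295 CPM in the others, lower in the members of 11 of 13 cultures, so that hepatocyte transcripts were present in both classes. Mesenchymal genes summed to between 747 and 4663 CPM and 1869 and 4731 CPM, and biliary genes to between 256 and 499 CPM and 256 and 395 CPM. Endothelial genes stood between 48.8 and 158 CPM in the members and 42.9 and 94.8 CPM in the others, and immune genes between 8.50 and 39.6 CPM and 15.2 and 30.4 CPM, with 4 of the 9 immune genes at 0 in the members and 1 at 0 in the others. Their part in the differences was not tested.

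The replication lists kept their direction without either of the large runs. Without run 3 the genes higher were 9 licensing, 9 CMG helicase, 7 polymerase, 10 clamp, 6 nucleotide supply, 7 chromatin, 19 checkpoint and 5 E2F and DREAM genes. Without run 4 they were 10, 11, 9, 13, 7, 11, 21 and 7, with 1 nucleotide supply gene lower, while 2 CDK inhibitors, 3 p53 targets and 1 hepatocyte marker were lower. In the 4 DMSO cultures alone, admitted with at least 5 members each after the data were seen, 6 licensing, 4 CMG helicase, 5 polymerase, 7 clamp and 13 checkpoint genes were higher and no gene of any list was lower.

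Members were found under every treatment scored, 34 of them among 783 DMSO cells. Their share was 5.34% of scored cells in run 3, 4.68% in run 4, 3.40% in run 5 and 6.34% in run 6, and from 4.11% to 6.04% over the 8 sublibraries. Over the 33 cultures with at least 30 scored cells it ran from 2.16% (etoposide 0.25 µM, run 4) to 11.6% (cycloheximide 0.2 µM, run 4, 8 of 69 cells, exact Clopper-Pearson 95% interval 5.14% to 21.6%). The tunicamycin 0.001 µM culture of run 3 gave 70 members, 19.5% of all, and also 20.0% of the scored cells. Intervals here and below cover counting error only.

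**Figure D5:**
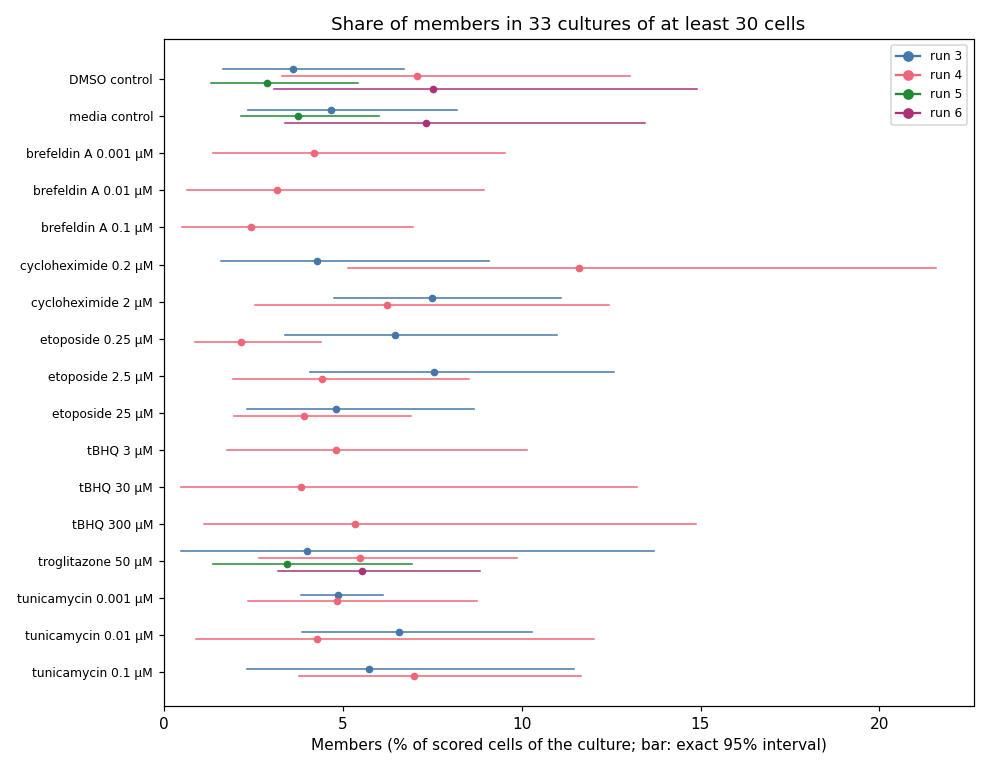
Members as a percentage of the scored cells of a culture, for each of 33 cultures grouped by treatment, with exact 95% intervals and colours for the run. The 4 DMSO cultures sit at 2.89%, 3.60%, 7.09% and 7.53%, and the intervals of the treated cultures overlap theirs.

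The question of whether a stressor changed the share of top-scoring cells was asked against DMSO. The 4 DMSO cultures had 3.60% (run 3), 7.09% (run 4), 2.89% (run 5) and 7.53% (run 6), a mean of 5.28% ± 2.37 (SD, n = 4). This SD was larger than the difference from DMSO of every tested treatment except cycloheximide 0.2 µM, whose difference was 2.66 percentage points. After thinning, 276 cells stood above the score limit and 743 were tied at it. The remaining places among the 352 members were filled by a random draw from the tied cells, which was not repeated. With these members, the SD over the DMSO cultures was 0.530, and the difference of every tested treatment except cycloheximide 0.2 µM was larger than it. How far these values depend on the draw was not tested. Cycloheximide 2 µM then stood 3.68 percentage points above DMSO and etoposide 25 µM 2.57 above, and 5 treatments had the smallest p possible for 2 cultures against 4 (two-sided exact permutation p = 0.133, adjusted p = 0.267). Without thinning, the means were 7.94% ± 5.17 with cycloheximide 0.2 µM, 6.87% ± 0.872 with cycloheximide 2 µM and 6.36% ± 0.885 with tunicamycin 0.1 µM (each n = 2). They were 4.36% ± 0.632 with etoposide 25 µM (n = 2), 5.24% ± 1.85 with medium alone (n = 3) and 4.62% ± 1.06 with troglitazone 50 µM (n = 4). No treatment of the 10 tested passed in either setting. Without thinning, raw p ran from 0.4 to 0.933 and all adjusted p were 0.933 (two-sided exact permutation tests, Benjamini-Hochberg). With 2 cultures against 4 the smallest p possible is 0.133, with 3 it is 0.0571 and with 4 it is 0.0286. All comparisons share the DMSO cultures. Set against the DMSO culture of the same run, a comparison added after the data were seen, the mean difference was -0.661 percentage points with troglitazone (lower in 2 of 4 runs, two-sided exact sign-flip permutation p = 0.5, smallest possible 0.125) and 0.568 with medium (higher in 2 of 3 runs, exact p = 0.5, smallest possible 0.25), and with 2 runs no p under 0.5 is possible. The cycloheximide 0.2 µM cultures had 4.29% (run 3) and 11.6% (run 4), the latter with the low MT- share named above and a median of 15942 UMIs, against 3.60% and 7.09% with DMSO in the same runs. Within run 4, where the 3 brefeldin A cultures and the 3 counted tBHQ cultures lie, the shares were 4.20%, 3.16% and 2.44% with rising brefeldin A and 4.80%, 3.85% and 5.36% with rising tBHQ, against 7.09% with DMSO in that run. That DMSO culture had a median of 2.46% MT- UMIs and 17080 UMIs, against 14.9% to 17.1% and 48733 to 91774 UMIs with brefeldin A. With members chosen after thinning it had 5.13%, against 5.93%, 2.13% and 2.44% with brefeldin A and 4.00%, 0% and 5.36% with tBHQ.

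Inside the members the response to a treatment rested on few cells, 34 DMSO members with 1614584 UMIs in all. The sums were not weighted by culture, so cultures with deeper cells count for more. The median depth of scored DMSO cells was 17080 UMIs in run 4 and 79381 in run 5. As no DMSO culture had 10 members, the summed members of each treatment are given as ratios to the summed DMSO members, over genes with at least 50 CPM and 50 UMIs on the higher side, with an exact conditional binomial 95% interval for counting error and no test. At least 2-fold differences either way made up 2.3% of 4787 genes with etoposide 25 µM (21 members), 1.26% of 4753 with tunicamycin 0.001 µM (80 members) and 6.95% of 4851 with cycloheximide 0.2 µM (14 members). They were 1.24% with medium, 2.74% with troglitazone, 2.83% and 4.26% with tunicamycin 0.01 and 0.1 µM, 4.08% with cycloheximide 2 µM, and 5.03% and 3.12% with etoposide 0.25 and 2.5 µM.

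With etoposide, which breaks DNA through topoisomerase II, none of the 15 p53 targets counted at 25 µM differed 2-fold, with a median log2 ratio of 0.28. MDM2 was at 1657 CPM in the etoposide 25 µM members and 1166 CPM in the DMSO members (log2 ratio 0.51, interval 0.42 to 0.60) and CDKN1A at 128 and 108 CPM (0.24, interval -0.07 to 0.56). At 2.5 µM the log2 ratios were 0.61 for MDM2 and 0.05 for CDKN1A, and at 0.25 µM they were 0.12 and -0.40. CDKN2B, the p15 inhibitor of CDK4 and CDK6, was the gene of these lists past 2-fold at 25 µM, with 77 UMIs against 41 (61.4 and 25.4 CPM, log2 ratio 1.27, interval 0.71 to 1.86), and it was at 1.05 (interval 0.45 to 1.66) at 0.25 µM. At 2.5 µM none of the 2 CDK inhibitor genes counted differed 2-fold. None of 13 checkpoint genes and none of 7 G2 and mitosis genes differed 2-fold at 25 µM.

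In the troglitazone 50 µM members TOP2A was at 17.7 CPM against 87.9 CPM in the DMSO members (log2 ratio -2.31, interval -2.99 to -1.69) and SPC25, a kinetochore gene, at 4.97 against 50.8 CPM (-3.35, interval -4.71 to -2.25). FANCA, of the Fanconi core complex, was at 45.4 against 109 CPM (-1.26, interval -1.70 to -0.84). TOP2A was also lower in the medium members, at 41.3 CPM (log2 ratio -1.09), and in the etoposide 2.5 µM members, at 41.0 CPM (-1.10). With cycloheximide 0.2 µM CDKN1A was at 48.6 CPM (log2 ratio -1.15, interval -1.94 to -0.45). The p53 target lists of the other treatments had no gene 2-fold up.

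A replicated test became possible when cultures with at least 5 members were admitted, a limit chosen after the data were seen. It called 1 gene of 7084 (0.0141%) with troglitazone 50 µM (3 cultures against 4) and 1 of 7550 (0.0132%) with cycloheximide 2 µM (2 against 4), and no gene in the members of medium alone, cycloheximide 0.2 µM, tunicamycin 0.001 or 0.1 µM, or any etoposide dose, where 160 to 432 genes had an unadjusted edgeR p under 0.05. The gene under troglitazone was FABP4, a fatty acid carrier and a known target of PPARγ. Its members had 80.0, 177 and 264 CPM in the 3 troglitazone cultures (15, 130 and 96 UMIs) and no UMI in the 4 DMSO cultures, so the groups did not overlap. Set against 3 UMIs over the summed DMSO members, the level was at least 101-fold higher (edgeR adjusted p = 0.00831). In the other cells of these cultures FABP4 was at 108 CPM against 1.81 CPM, 59.7-fold and 1 of 14 genes called there (0.0749%), and the difference of the responses between classes had an unadjusted edgeR p of 0.00871 and an adjusted p of 1.00.

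Under cycloheximide 2 µM the called gene was ENSG00000259001, a long non-coding RNA at chr14:20343048-20343685 that overlaps RPPH1, the RNA of ribonuclease P, and PARP2, so its counts are uncertain. The members had 74.2 and 485 CPM in the 2 cycloheximide cultures and 0 to 6.22 CPM in the 4 DMSO cultures, so the groups did not overlap (edgeR adjusted p = 0.0376). In the other cells the level was 248 CPM against 7.91 CPM, the single call there (0.00506%), and the adjusted p for a difference between classes was 1.00. The tunicamycin 0.001 µM culture of run 4 also had it high, at 73.5 CPM in 10 members, against 6.87 CPM in the 70 members of run 3. With tunicamycin 0.1 µM 1 gene was called in the other cells (0.00542%). Over all genes no difference of response between the members and the other cells passed under any of the 9 treatments tested in this way, with 314 to 690 genes at an unadjusted edgeR p under 0.05.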

How the data were processed

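The files hold UMI counts per gene and cell, and the authors deposited them as raw counts made with the Parse pipeline, which aligned reads to GRCh38 and collapsed UMIs (aligner and version not given in the sources used here). Per the file headers a second table gives each cell's sample name, treatment, dose, time and rep number. The study's methods state removal of cells under 500 genes or over 20% mitochondrial RNA. All 12976 deposited cells had at least 500 genes, and 4570 exceeded 20% MT- UMIs. Of 8406 cells within both limits 1234 had rotenone or cycloheximide 20 µM, which left 7172.

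Counts were summed per culture and class and tested with edgeR 4.0.16 (glmQLFit and glmQLFTest, filterByExpr, scaled by total count, culture as a block, Benjamini-Hochberg) in R 4.3.3, the 12 score genes left out. The block compares sums from 1 culture. On data simulated for this comparison over 16118 genes, 48%, 84%, 100% and 100% of genes changed 1.5, 2, 4 and 8-fold were recovered, with 7 false calls. The simulation gave every gene the same dispersion and both classes the same culture effect. These rates hold for that setting and need not hold for the real sums. Shares were compared by exact permutation with scipy. Positions are from GENCODE and promoters from RefSeq, matched by symbol. Named genes were the 12 score genes, the 4 largest of each list with at least 3 genes called in 1 direction, called genes that went against their list or stood in shorter ones, and the 10 largest rises and falls (at least 20 CPM and 50 UMIs, 1 direction in every culture). TYMS, PCNA, MCM7, TOP2A and CDKN1A were named after their values were seen. 1 gene that the rule names is not reported here. Members and lists were chosen with earlier results of these data known.

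Alternatives were TMM factors, DESeq2 1.42.0, no filter, thinning to 10000 UMIs, other limits on the score or on members per culture, no block, leaving out runs or cultures, and shares within runs. Where members were chosen after thinning, cells tied at the score limit were taken by a random draw that was not repeated. A test in DMSO cultures alone could not be made with 10 members per culture.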

Additional observations from a re-analysis of the deposited data

Results flagged for a closer look

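Cells that the rule left out for their treatment also held cells at or over the score limit, in 3 cultures at a higher share than in any DMSO culture of at least 30 scored cells (highest 7.53%). These were cycloheximide 20 µM in run 3 with 8.00% (18 of 225 cells, exact 95% interval 4.81% to 12.3%), cycloheximide 20 µM in run 4 with 13.5% (5 of 37 cells, 4.54% to 28.8%), and rotenone 0.4 µM in run 6 with 11.8% (13 of 110 cells, 6.45% to 19.4%). Both cycloheximide intervals overlap those of all 4 DMSO cultures, and the rotenone interval overlaps those of 3 but not that of run 5 (1.33% to 5.42%). The rotenone 0.2 µM culture of run 5 had 1.34%, although 21.6% of its cells had at least 6 S genes detected at a median of 184833 UMIs, and the rotenone 0.4 µM culture of run 5 had 6.05%. No culture or sublibrary stood far from the others in its share of members in the 3 groups of 4 to 10 that were examined.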

How the results depend on the processing

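The main test called 613 genes higher and 227 lower in 13 cultures. In the same cultures the counts were 726 and 446 with DESeq2 and 499 and 323 with TMM factors. They were 485 and 170 without the filter and 710 and 276 without the lowest 5%. Other settings also changed the cultures that entered, so their counts do not reflect the processing alone. Counts thinned to 10000 UMIs per cell gave 254 and 144 (12 cultures), and members chosen after thinning 263 and 50 (14 cultures). The top 2% gave 405 and 273 (2 cultures) and the top 10% 454 and 265 (25 cultures). At least 20 members per culture gave 125 and 30 (2 cultures). Without the block of members and other cells from 1 culture they were 482 and 113. Leaving out 1 run at a time gave 173 to 545 higher and 33 to 188 lower, the fewest without run 3 (fewer cultures). Chosen after the data were seen, the DMSO cultures with at least 5 members gave 76 and 5, and all cultures with at least 5 members 1015 and 700. Of the values of the named genes under these settings 822 kept their side of the threshold and direction, 157 lost the call, and KIF20A reversed to a log2 fold change of 0.53 in the DMSO cultures.

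The share differences from DMSO, none of which passed, changed sign in several settings, and the cause was not tested. After thinning they were -0.896 percentage points for etoposide 2.5 µM, 2.57 for etoposide 25 µM, 0.710 for medium and -2.15 for tunicamycin 0.01 µM. For the top 2% they were -0.127 for cycloheximide 0.2 µM, 0.094 for etoposide 0.25 µM and -0.852 for etoposide 2.5 µM, and for the top 10% -1.17 for tunicamycin 0.01 µM. By the S genes alone they were 1.74, -0.491 and 4.91 for rising etoposide, 1.17 for medium, 0.972 for troglitazone and 2.64 for tunicamycin 0.001 µM. Leaving out 1 culture at a time gave -1.07 to 0.715 for medium, -1.46 to 0.0887 for troglitazone, -1.20 to 0.341 for tunicamycin 0.001 µM, -0.991 to 1.29 for tunicamycin 0.01 µM, -0.857 to 2.28 for etoposide 2.5 µM, -3.12 to 1.17 for etoposide 0.25 µM and -0.991 to 6.32 for cycloheximide 0.2 µM, the last 2 changing sign without their run 4 cultures. With the run as a replicate block, medium reversed to 0.568 and the other 9 differences kept their sign, with all adjusted p at 1 (exact sign-flip permutation). The settings planned for tests of treatment inside the members were not run, as no DMSO culture had 10 members.

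Of the members deep enough to thin, 54.9% were chosen again at 10000 UMIs, a share that includes the random draw among tied cells. By the S genes alone, 23.4% of all members were also in the top 5%.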
